A study of Mus musculus with 13 samples.

Results

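The Eph receptors and their ephrin ligands, the semaphorins with their plexin and neuropilin receptors, and the Slit, Robo and Unc5 families were examined in mouse embryonic stem (ES) cells with and without an induced mutant of CTCF. The genes were taken by symbol, with no threshold on a measured value, as those named Epha, Ephb, Efna, Efnb, Sema3 to Sema7, Plxna to Plxnd, Nrp, Unc5, Slit or Robo. The counts held 64 such genes of 24421 in all: 9 EphA and 5 EphB receptors, 5 A-type and 3 B-type ephrins, 7 semaphorins of class 3, 6 of class 4, 2 of class 5, 4 of class 6 and 1 of class 7, 9 plexins, 2 neuropilins, 3 Slit genes, 4 Robo genes and 4 Unc5 genes. Each of the 64 had at least 1 count in at least 1 library, so all of them were tested, and 57 had a mean level of 1 CPM or more (CPM being read counts scaled to library size).

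Ephrins are membrane-bound ligands of the Eph receptor tyrosine kinases, and signals pass into both the ligand-bearing and the receptor-bearing cell on contact. Semaphorins are secreted (class 3) or membrane-anchored ligands that act through plexins, for most class 3 members together with a neuropilin as the ligand-binding co-receptor. Slit proteins are secreted ligands of Robo receptors, and Unc5 proteins are receptors of netrins. These systems are known for steering growing axons and blood vessels, and Eph receptors and ephrins also sort cells at tissue boundaries in the early embryo.

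The cells were F1-2.1, a female ES cell line from a cross of CAST/Ei and 129/Sv/Jae mice, kept on γ-irradiated embryonic fibroblast feeders with LIF. They carried a Tet-on transgene that makes CTCF S224E, the insulator protein CTCF with a serine replaced by glutamate to mimic phosphorylation, and both groups carried this transgene. The +dox group had 1 μg/mL doxycycline (dox) for 6 days and the −dox group had none, with 2 libraries of polyadenylated RNA each, numbered replicate 1 and replicate 2. A clone named A2 was the only one with RNA data, the endogenous CTCF remained, and no RNA of dox-treated cells lacking the transgene was used here, so the effects of dox and of the mutant cannot be told apart. The study's methods call the replicates biological, the labels name no separate cultures, and p-values measure the spread between these libraries.

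The libraries held 22899107 to 30206085 counted reads, of which the 64 genes took 51906 and 45267 with dox and 71364 and 57783 without (0.196% to 0.236% of a library). Total Ctcf RNA, which does not separate transgene from endogenous transcripts, stood at 327 and 329 CPM with dox and 295 and 304 CPM without. The ES cell genes were present in all libraries, with Pou5f1 between 949 and 1254 CPM. The +dox replicate 1 stood apart in markers of fibroblasts, the feeder cell type. The 36 markers summed to 3654 CPM there, against 1565 CPM in +dox replicate 2 and 1318 and 1421 CPM without dox, and none of them was at 0 in any library. In bulk RNA, fewer cells of a type and less RNA per cell cannot be told apart.

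With dox, 2 of the 64 genes fell and none rose at an adjusted p under 0.01 (edgeR's quasi-likelihood test, Benjamini-Hochberg over 20044 genes). The 2 were Epha1, an EphA receptor, and Sema3e, a secreted class 3 semaphorin. Among all tested genes 0.519% fell (104 genes) and 0.0798% rose (16 genes). At an adjusted p under 0.05, 6 of the 64 were lower and 0 higher, against 1.93% and 0.928% of all genes, and the 4 that joined were Plxnd1, Sema4g, Sema6a and Sema7a. DESeq2 called the same 2 genes at 0.01, where it called 1.86% of 13826 genes lower. At an unadjusted p under 0.05, edgeR's test gave 20 lower and 8 higher genes of the 64, where 9.31% of all genes were lower (1867) and 8.48% higher (1699).

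Most other members had small negative fold changes. Of the 64 log2 fold changes, 44 were negative (68.8%, against 49.2% over all genes tested), and 30 were negative in both replicates (46.9%, against 30.9%). Among genes averaging 1 CPM or more, these shares were 68.4% against 50.2%, and 49.1% against 35.7%. The median was −0.17 on the log2 scale, beside 0.01 over all genes, and it differed between the replicates, at −0.02 in replicate 1 and −0.31 in replicate 2. In the 57 genes that averaged 1 CPM or more, both +dox libraries lay below both −dox libraries in 22 (38.6%, where 27.7% of all such genes did) and above them in 10 (17.5%, where 26.1% did). In the remaining 25 the groups overlapped. The summed level of the 64 was 2306 and 1982 CPM with dox and 2336 and 2303 CPM without.

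**Figure D1:**
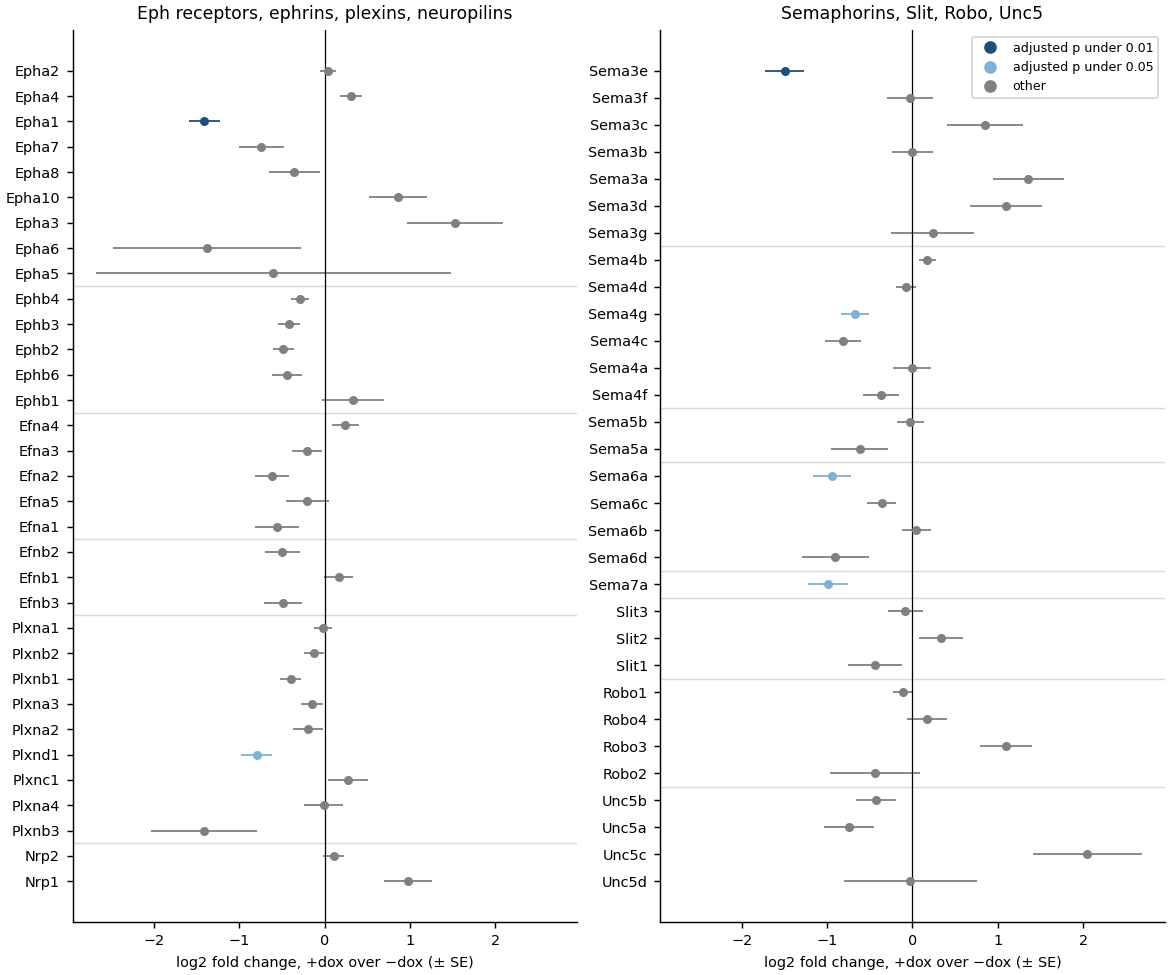
Log2 fold change of each of the 64 guidance genes with dox against without, with its standard error as a bar, ordered by family (grey lines) and within a family by mean CPM. Epha1 and Sema3e (dark blue) lie furthest below 0 among the genes that averaged 1 CPM or more, and 4 further genes (light blue) passed 0.05, all of them below 0.

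The levels of the families spanned a wide range. Per kilobase of exon, the highest member was Epha2 among the EphA receptors (52.4 CPM per kb), Ephb4 among the EphB receptors (27.6), Efna3 among the A-type ephrins (15.9) and Efnb2 among the B-type ephrins (7.16). Plxna1 led the plexins at 51.0 CPM per kb and Nrp2 the neuropilins at 21.5. Sema4b stood at 27.3 CPM per kb, above the leading semaphorins of class 3 (Sema3f, 3.12), class 5 (Sema5b, 3.95), class 6 (Sema6c, 6.89) and class 7 (Sema7a, 2.62). Robo1 (9.51), Unc5b (11.3) and Slit3 (5.37) led their families on the same scale. The 7 genes with a mean under 1 CPM were Epha3, Epha5, Epha6, Plxnb3, Robo2, Sema3g and Unc5d. Epha5 had 0 counts in +dox replicate 2, which allows up to 0.131 CPM (3 counts, counting error only), and 1 count in each other library.

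**Figure D2:**
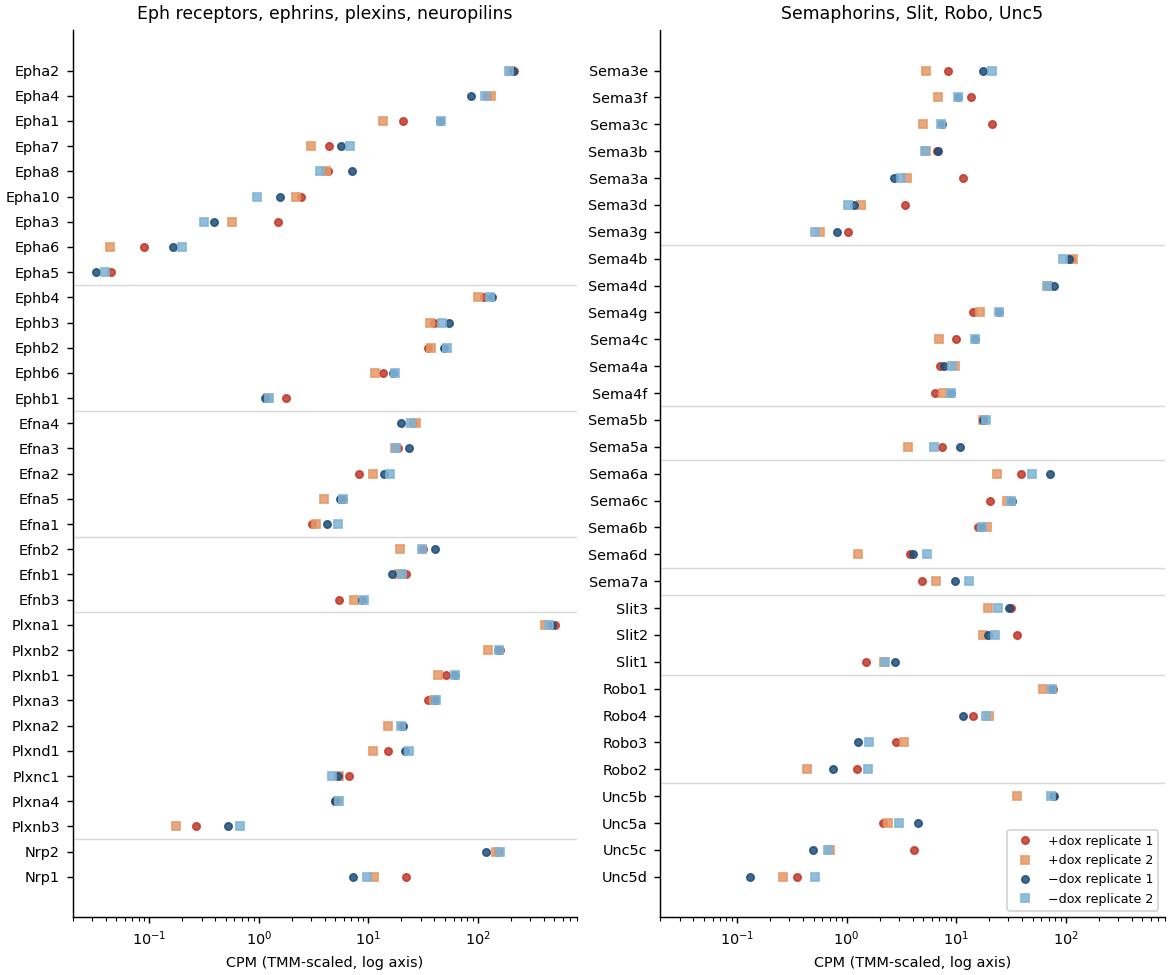
Level of each guidance gene in CPM on a log axis, with 1 point per library (circles replicate 1, squares replicate 2, warm colours +dox, blue −dox) and families parted by grey lines. Epha1 and Sema3e show both +dox points to the left of both −dox points, while Unc5c, Sema3a, Sema3c, Sema3d and Nrp1 show a lone +dox replicate 1 point to the right; the 0 of Epha5 in +dox replicate 2 is not drawn.

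Since the induced protein is a mutant of CTCF, the 250 bases before the start of the called genes were read from the mm9 genome, beside those of Epha2, the most abundant EphA receptor by length, and of Sema3a, the class 3 neighbour of Sema3e. The windows lie at chr6:42323268-42323517 (minus strand) for Epha1, chr5:14025026-14025275 (plus strand) for Sema3e, chr4:140856886-140857135 (plus strand) for Epha2 and chr5:13399059-13399308 (plus strand) for Sema3a. They were searched on both strands for CCCTC, which is part of the CTCF motif, for AGGTGT (a T-box core), for TATAAA (the TATA box) and for CACGTG (the E-box), and the capitals mark the matches. They are written 5′ to 3′ on the strand of the gene.
Epha1: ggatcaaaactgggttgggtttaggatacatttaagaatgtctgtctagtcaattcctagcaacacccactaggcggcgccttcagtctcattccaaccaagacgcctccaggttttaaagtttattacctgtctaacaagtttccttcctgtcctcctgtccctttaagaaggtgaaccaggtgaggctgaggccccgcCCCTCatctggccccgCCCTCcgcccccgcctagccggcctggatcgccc
Sema3e: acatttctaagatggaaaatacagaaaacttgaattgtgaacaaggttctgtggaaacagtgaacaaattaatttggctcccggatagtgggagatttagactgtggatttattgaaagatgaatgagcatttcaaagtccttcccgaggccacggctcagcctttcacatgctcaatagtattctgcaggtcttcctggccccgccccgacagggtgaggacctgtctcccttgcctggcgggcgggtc
Epha2: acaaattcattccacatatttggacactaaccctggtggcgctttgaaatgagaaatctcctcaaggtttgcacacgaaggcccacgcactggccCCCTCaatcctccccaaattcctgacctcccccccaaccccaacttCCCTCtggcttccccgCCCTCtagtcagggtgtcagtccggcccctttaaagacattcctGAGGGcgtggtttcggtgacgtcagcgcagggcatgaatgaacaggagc
Sema3a: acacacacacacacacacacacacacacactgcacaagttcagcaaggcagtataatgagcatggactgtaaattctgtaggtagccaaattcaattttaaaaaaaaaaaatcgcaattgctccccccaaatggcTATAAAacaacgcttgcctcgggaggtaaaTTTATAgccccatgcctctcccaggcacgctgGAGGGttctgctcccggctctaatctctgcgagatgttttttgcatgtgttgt

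The Epha1 window held CCCTC at 2 places, at 50 and 34 bases before the start, the Epha2 window at 4 places, the Sema3a window at 1 and the Sema3e window at none. CCCTC was in 63.3% of all 24349 windows of this length and in 50 of the 64 windows of the guidance genes (78.1%), whose median GC content was 65.4%, against 55.2% over all windows. AGGTGT was in 7 of the 64 (10.9%, against 11.4% of all windows), and TATAAA and CACGTG were in 2 each (3.1%, against 12% and 6.7%). Sema3a had TATAAA at 115 and 85 bases before its start. A match of these letters is a description of the window, and binding of CTCF was not measured at these starts here.

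Epha1 encodes an Eph receptor that binds A-type ephrins. It stood at 20.6 and 13.7 CPM in the +dox libraries (replicates 1 and 2) and at 45.0 and 45.9 CPM in the −dox libraries. Both +dox libraries were below the −dox libraries, which differed little from each other. The log2 fold change was −1.41 ± 0.18 (SE, 2 libraries a group, adjusted p = 0.00179 by edgeR's quasi-likelihood test with Benjamini-Hochberg adjustment), so the −dox level was 2.65 times the +dox level. The call was lost with either −dox library left out, with adjusted deviances and with the filterByExpr filter, and over the 14 alternatives the adjusted p ran from 6.1e-18 to 0.67. The fold change kept its direction in all of them (−1.73 to −1.14 with a library left out). Over all genes, 0 were called with adjusted deviances and 11 with the filterByExpr filter, against 120 in the main test. Without either −dox library, edgeR's test left no call over all genes. The loss of the call in these settings was thus not particular to Epha1.

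The exons of Epha1, at chr6:42308486-42323267 on the minus strand, share 160 of 3273 annotated bases with exons of Zyx, which encodes the focal adhesion protein zyxin and lies on the opposite strand. Zyx stood at 259 and 208 CPM with dox and 235 and 184 CPM without. If the counting did not use the strand, Zyx reads spread evenly over its exons would give 16 and 12.8 CPM of the Epha1 values with dox and 14.5 and 11.4 CPM of those without. Whether the strand was used is not given in the sources used here, so the level of Epha1 is uncertain by that amount, and the part of Zyx in it was not tested. Less that amount, Epha1 would stand at 4.6 and 0.882 CPM with dox and at 30.5 and 34.6 CPM without, so the size of its fold change depends on it too. In all, 12 of the 64 genes share exon bases with another annotated gene, 11 of them on the opposite strand. Zyx itself had a log2 fold change of 0.15 ± 0.13 (adjusted p = 0.608 by edgeR's test).

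The other EphA receptors did not pass the test. Epha2, a receptor known from epithelia and ES cells, stood at 214 and 202 CPM with dox and 211 and 194 CPM without, and the groups overlapped (log2 fold change 0.04 ± 0.09, and −0.01 with total counts as the scale). Epha4, which binds ephrins of both types, was higher in both +dox libraries, at 120 and 131 CPM against 86.4 and 116 CPM, with a log2 fold change of 0.31 ± 0.13 (adjusted p = 0.231 by edgeR's test). Epha7, Epha8, Epha10, Epha3, Epha6 and Epha5 lay between 0 and 7.04 CPM in every library. Of these, Epha7 and Epha6 were lower and Epha10 and Epha3 higher in both +dox libraries. The counts of Epha7 belong to different transcripts in replicate 1 and in replicate 2.

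None of the 5 EphB receptors, which bind B-type ephrins, passed the test, and 4 had fold changes between −0.48 and −0.29 on the log2 scale. Ephb4 stood at 114 and 101 CPM with dox and 135 and 129 CPM without (log2 fold change −0.29 ± 0.10, adjusted p = 0.147 by edgeR's test). Ephb2 had 35.0 and 37.6 CPM against 48.8 and 52.7 CPM, with a log2 fold change of −0.48 ± 0.12 and the lowest adjusted p of the family (0.0592). Ephb3 had 39.8 and 36.6 CPM against 54.4 and 47.5 CPM, and Ephb6, whose kinase domain is inactive, had 13.5 and 11.6 CPM against 16.7 and 17.5 CPM. In these 4 genes both +dox libraries lay below both −dox libraries, which also held for 27.7% of all genes averaging 1 CPM or more. Only Ephb1, at 1.15 to 1.78 CPM, had a positive fold change. The family summed to 204.5 and 188.3 CPM with dox and 256.0 and 247.8 CPM without.

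None of the 8 ephrins passed the test, and 6 had a negative fold change. The GPI-anchored Efna3 stood at 18.5 and 17.4 CPM with dox and 23.6 and 17.8 CPM without, and +dox replicate 1 lay within the range of the −dox libraries. Efna3 shares 344 of 2434 exon bases with a noncoding gene on the opposite strand, and Efna4 shares 168 of 1599. Their levels are thus uncertain in the same way as that of Epha1, and so is the lead of Efna3 (15.9 CPM per kb) over Efna4 (15.2). The transmembrane Efnb2, a ligand known in arterial vessels, stood at 31.9 and 19.4 CPM against 41.0 and 31.1 CPM, with a log2 fold change of −0.49 ± 0.21 (adjusted p = 0.237 by edgeR's test). Its +dox replicate 2 was the low library. Without +dox replicate 1 the fold change was −0.90 and was called by edgeR's test (adjusted p = 4.52e-05, with up to 0.735 among the alternatives). Efna1, Efna2 and Efnb3 were lower and Efna4 higher in both +dox libraries, with adjusted p between 0.124 and 0.467 by edgeR's test.

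**Figure D3:**
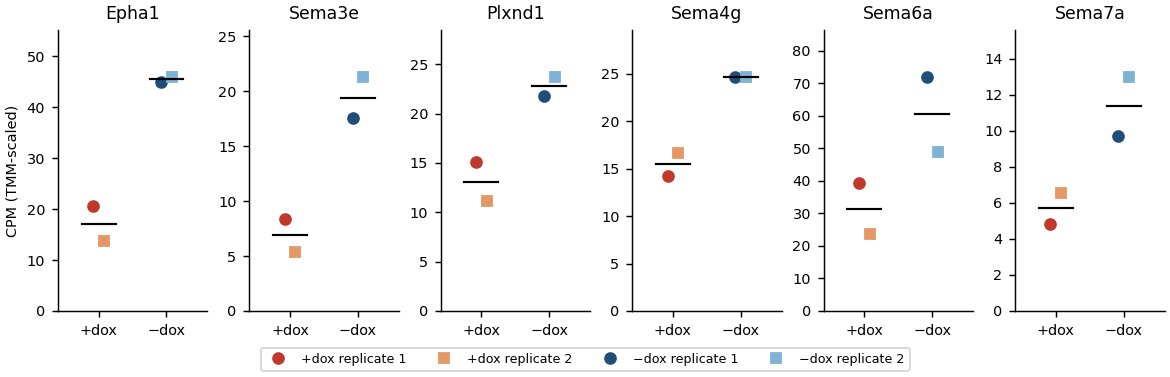
CPM of the 6 guidance genes with an adjusted p under 0.05 (edgeR's quasi-likelihood test), with 1 point per library and a bar at the mean of each group; each axis starts at 0. In every panel both +dox points lie below both −dox points, with the widest gap for Epha1 (20.6 CPM at most with dox, 45.0 CPM at least without).

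Sema3e is unusual among the class 3 semaphorins in that it binds Plxnd1 without a neuropilin, a pair known from the patterning of blood vessels. Sema3e stood at 8.40 and 5.34 CPM with dox and 17.5 and 21.3 CPM without, and the groups did not overlap. Its log2 fold change was −1.50 ± 0.23 (adjusted p = 0.00546 by edgeR's quasi-likelihood test), the most negative of the 64, and the −dox level was 2.82 times the +dox level. The call was lost under the same settings as that of Epha1, with adjusted p from 3.4e-12 to 0.67, and no setting turned its direction. Its receptor gene Plxnd1, named after its values were seen, stood at 15.1 and 11.1 CPM with dox and 21.8 and 23.7 CPM without. Its log2 fold change was −0.80 ± 0.18 (adjusted p = 0.0397 by edgeR's test, 5.06e-05 to 0.67 over the alternatives). Sema3e and Plxnd1 were thus both lower in each replicate, at −1.06 and −0.53 in replicate 1 and −1.98 and −1.09 in replicate 2. The pair of Sema7a and its receptor gene Plxnc1, which was also named after its values were seen, did not move together. Sema7a had a log2 fold change of −0.99, and Plxnc1 one of 0.27 ± 0.23. Plxnc1 stood at 6.62 and 5.39 CPM with dox and 5.27 and 4.66 CPM without.

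The other class 3 semaphorins did not follow Sema3e. Sema3d, Sema3a, Sema3e and Sema3c lie within 4.85 Mb of chromosome 5, all on the plus strand, with Sema3a and Sema3e starting 1.02 and 1.64 Mb after Sema3d. Sema3a, a repellent of axons, stood at 11.5 CPM in +dox replicate 1 and at 3.55 CPM in +dox replicate 2, against 2.72 and 3.15 CPM without dox. Sema3d stood at 3.42 and 1.36 CPM against 1.18 and 1.04 CPM, and Sema3c at 21.4 and 5.04 CPM against 7.37 and 7.25 CPM. In all 3, +dox replicate 1 was the high library, and the +dox replicate 2 value of Sema3c lay below both −dox libraries. Sema3f stood at 13.5 and 6.88 CPM against 10.5 and 10.4 CPM, with the −dox values between those of the +dox libraries.

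Of the transmembrane and anchored semaphorins, 3 passed 0.05 and not 0.01. Sema4g, named after its values were seen, stood at 14.3 and 16.7 CPM with dox and at 24.7 CPM in both −dox libraries (log2 fold change −0.67 ± 0.16, adjusted p = 0.045 by edgeR's test). Sema6a, which acts through A-type plexins, stood at 39.4 and 23.6 CPM against 72.0 and 48.9 CPM (−0.94 ± 0.22, adjusted p = 0.0415 by edgeR's test and 0.232 by DESeq2). Between same-numbered libraries its differences were −0.87 and −1.05, but these libraries share only a number, and other pairings would give other amounts. Sema7a, the GPI-anchored semaphorin that binds integrins and Plxnc1, stood at 4.84 and 6.57 CPM against 9.72 and 13.0 CPM (−0.99 ± 0.23, adjusted p = 0.0437 by edgeR's test). The groups did not overlap in any of these 3 semaphorins, where 27.7% of all genes averaging 1 CPM or more were lower in this way. With 2 libraries a group, genes picked by a low adjusted p would mostly show this, so it adds no evidence.

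Of the remaining members of classes 4 to 6, none passed 0.05 and most had a negative fold change, as did 49.2% of all genes tested. Among them, only Sema4b and Sema6b (0.05 ± 0.17) had a positive one. Counting Sema4g too, 5 of 6 were negative in class 4, and 2 of 2 were in class 5. Counting Sema6a, 3 of 4 were negative in class 6. Sema4c stood at 10.0 and 6.96 CPM with dox and at 14.9 CPM in both −dox libraries (log2 fold change −0.81 ± 0.21, adjusted p = 0.0623 by edgeR's test). Sema6d stood at 3.78 and 1.27 CPM against 4.03 and 5.42 CPM, so its difference was carried by replicate 2 (−2.03, against −0.09 in replicate 1), and its counts in the 2 replicates belong to different transcripts. Sema6c stood at 20.4 and 29.3 CPM against 32.4 and 31.4 CPM (−0.36 ± 0.17). Sema4b, the most abundant semaphorin, had 112 and 116 CPM with dox and 107 and 94.2 CPM without, a log2 fold change of 0.18 ± 0.10. Sema5b stood between 17.5 and 18.6 CPM in the 4 libraries. Class 6 as a whole summed to 79.3 and 73.6 CPM with dox and 125.3 and 102.8 CPM without. Sema6a made up most of that difference, and Sema6b stood at 15.8 and 19.3 CPM against 16.9 and 17.1 CPM.

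Among the receptors of semaphorins, the abundant plexins did not pass the test. Plxna1 stood at 505 and 408 CPM with dox and 479 and 443 CPM without, and the −dox values lay between the +dox values (log2 fold change −0.01 ± 0.11). It shares 970 of 9025 exon bases with a noncoding gene on the opposite strand, so its level is uncertain in the same way as that of Epha1. Of the 9 plexins, 8 had a negative fold change and 6 were negative in both replicates, and besides Plxnd1 none passed 0.05. Nrp2 stood at 153 and 146 CPM against 119 and 159 CPM, and the groups overlapped. Nrp1, the main co-receptor of Sema3a, stood at 22.2 and 11.2 CPM against 7.20 and 9.76 CPM (0.98 ± 0.28, adjusted p = 0.088 by edgeR's test), with +dox replicate 1 far above the rest.

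Slit and Robo genes showed no call. Slit3 stood at 32.0 and 19.7 CPM with dox and 30.5 and 24.2 CPM without, and Slit2 at 36 and 17.5 CPM against 19.6 and 22.8 CPM. In both, the +dox libraries enclosed the −dox libraries. Robo1, the most abundant of the Slit receptors, stood at 76.1 and 61.8 CPM against 74.3 and 74.4 CPM (−0.11 ± 0.12). Robo3, which differs from its family in that it does not bind Slit with high affinity, stood at 2.80 and 3.33 CPM against 1.28 and 1.59 CPM. It was the only one of the 5 largest increases with like values in the replicates (1.09 and 1.03), and its log2 fold change of 1.10 ± 0.30 did not pass the test (adjusted p = 0.0773 by edgeR's test).

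Of the netrin receptors of the Unc5 family, Unc5b and Unc5c differed between the +dox libraries. Unc5a was lower in both, at 2.13 and 2.36 CPM against 4.49 and 3.03 CPM without dox. Its log2 fold change of −0.74 ± 0.29 did not pass the test (adjusted p = 0.197 by edgeR's test). Unc5b stood at 76.8 CPM in +dox replicate 1, close to 77.7 and 74.2 CPM without dox, and at 36.3 CPM in +dox replicate 2. Its log2 fold change was −0.43 ± 0.24, and −1.07 without +dox replicate 1 (adjusted p = 1.52e-09 by edgeR's test, up to 0.971 over the alternatives). Unc5c stood at 4.13 CPM (93 counts) in +dox replicate 1 and at 0.701, 0.491 and 0.678 CPM (15 to 17 counts) in the other 3 libraries. Its log2 fold change of 2.05 ± 0.64 was the highest of the 64 and did not pass the test (adjusted p = 0.108 by edgeR's test).

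**Figure D4:**
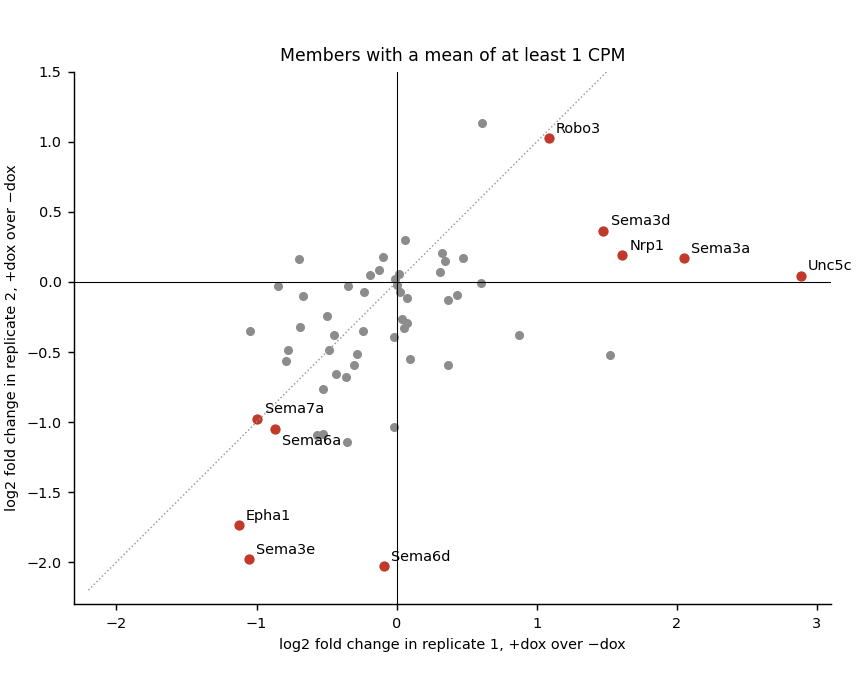
Log2 fold change with dox in replicate 1 (horizontal) and replicate 2 (vertical) for the 57 guidance genes that averaged 1 CPM or more, with the 5 largest decreases and 5 largest increases in red and the line of equal change dotted. Epha1, Sema3e, Sema6a and Sema7a are low in both replicates, Robo3 is high in both, and Unc5c, Sema3a, Sema3d and Nrp1 are above 1 in replicate 1 and between 0.04 and 0.37 in replicate 2.

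A few guidance genes were high in +dox replicate 1 alone. In 6 of the 57 genes averaging 1 CPM or more (Nrp1, Sema3a, Sema3c, Sema3d, Slit2 and Unc5c) this library exceeded each other library by over 1.5 times, a share of 10.5%, where 3.03% of all genes at that level (421 of 13911) did so. Among the fibroblast markers at that level, 28 of 34 did (82.4%). Relative to the mean without dox, +dox replicate 1 was at 2.67 for the summed fibroblast markers and between 1.69 (Slit2) and 7.07 (Unc5c) for the 6 genes. The +dox replicate 2 was at 1.14 for the markers and between 0.689 (Sema3c) and 1.32 (Nrp1) for the genes. The part of feeder cells in these values was not tested.

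**Figure D5:**
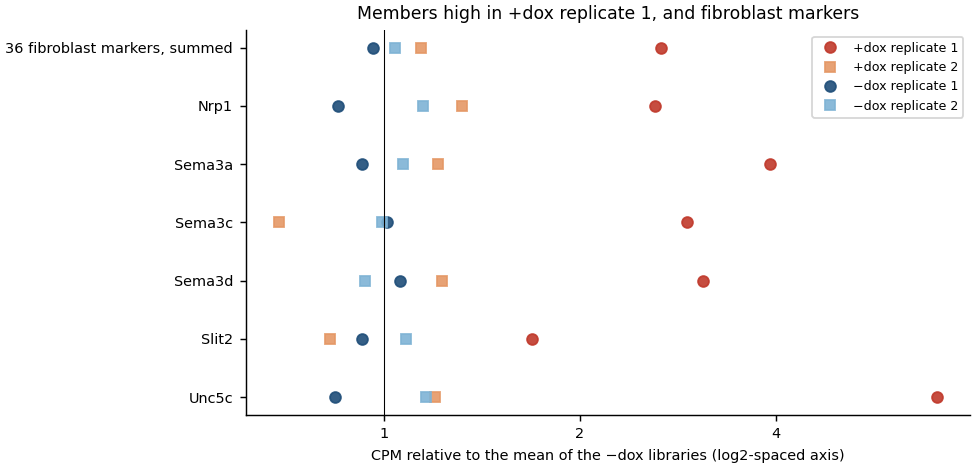
Level of the 6 guidance genes that were over 1.5 times higher in +dox replicate 1 than in each other library, and of the 36 summed fibroblast markers, each divided by its mean in the −dox libraries, on a log2-spaced axis. In every line +dox replicate 1 is alone on the right, from 1.69 for Slit2 to 7.07 for Unc5c, and the markers are at 2.67.

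The calls among the guidance genes changed with the library left out. Without +dox replicate 1, 9 of the 64 genes were called lower and 0 higher (Efnb2, Epha1, Plxnd1, Sema3e, Sema4c, Sema5a, Sema6a, Sema6d and Unc5b), where 3.56% of all genes in that fit were lower and 1.51% higher. Without +dox replicate 2, 6 were called lower (Efna2, Epha1, Sema3e, Sema4g, Sema6a and Sema7a) and 7 higher, which were the 6 genes above and Epha3, where 1.81% of all genes were called lower and 2.62% higher. Over all genes the number of calls thus also rose with either library left out, to 992 and 877 from 120. Epha1, Sema3e and Sema6a were the 3 called lower in both cases. Without +dox replicate 1, the log2 fold changes of Unc5c, Sema3a, Sema3d and Nrp1 were 0.27, 0.28, 0.29 and 0.40, and those of Sema3c and Slit2 were −0.54 and −0.28. Without −dox replicate 1 or −dox replicate 2, edgeR's test left no call, over all genes as among the 64. The log2 fold changes of Epha1 and Sema3e were −1.42 and −1.63 without −dox replicate 1. They were −1.39 and −1.35 without −dox replicate 2. In these fits the lone library of a group is assumed to vary like the other group.

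Other genes of the same pathways were taken by role: 15 netrins, their receptors and related guidance proteins, 30 effectors of Eph receptors, 27 of semaphorins and 23 of Slit and Robo, and 6 proteases that cut guidance receptors. Of these 101 genes, 66 had a negative and 35 a positive fold change (65.35% negative, against 49.2% over all genes tested, median −0.09). At 0.01, 3 passed, 2 of them lower (1.98%) and 1 higher, against 0.519% and 0.0798% of all genes. Arap3, a GTPase-activating protein, stood at 2.80 and 2.72 CPM with dox and 9.07 and 10.4 CPM without (log2 fold change −1.82 ± 0.23, adjusted p = 0.00182 by edgeR's test). Rgs3, a regulator of G protein signalling that binds B-type ephrins, stood at 4.04 and 3.81 CPM against 13.1 and 13.5 CPM (−1.76 ± 0.21, adjusted p = 0.00126 by edgeR's test). Sdc4, a cell surface heparan sulphate proteoglycan, rose from 95.1 and 97.2 CPM to 148 and 157 CPM (0.66 ± 0.10, adjusted p = 0.00386 by edgeR's test). In all 3 the groups did not overlap, which also held for 27.7% (lower) and 26.1% (higher) of all genes averaging 1 CPM or more. Genes picked by a low adjusted p would mostly show this, so it adds no evidence. With adjusted deviances and with the filterByExpr filter, edgeR's test called 0 of the 101 (25 and 26 at an unadjusted p under 0.05). Over all genes it called 0 and 11 in these settings. Without −dox replicate 1 or −dox replicate 2 it left no call, over all genes as among the 101.

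By role, the Eph effectors held the 2 decreases, with 24 of 30 fold changes negative and a median of −0.16, and Git1 was their highest member (76.5 CPM per kb, log2 fold change −0.07). The Slit and Robo effectors held the increase, with 13 of 23 negative and a median of −0.03, led by the actin-severing Cfl1 (526 CPM per kb, 0.29). The semaphorin effectors had no call, with 18 of 27 negative and a median of −0.09, led by the adaptor Gipc1 (74.9 CPM per kb, −0.31). The netrin group had 7 of 15 negative and a median of 0.07, led by the receptor Neo1 (12.3 CPM per kb, −0.21). The proteases had 4 of 6 negative and a median of −0.04.

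Markers of other cell types moved with the groups to different degrees. Of 22 primitive streak genes, 8 were called lower (T, Eomes, Mixl1, Lhx1, Foxa2, Cer1, Fgf8 and Sp5) and 0 higher, against 0.519% and 0.0798% of all tested genes. Fold changes were negative in 15 and positive in 7, with a median of −1.19 on the log2 scale. The list summed to 813 and 736 CPM with dox and 967 and 937 CPM without. Of 14 measured primitive endoderm genes, 3 were called lower (Gata6, Sox17 and Foxq1) and 0 higher, while 6 had a negative and 8 a positive fold change. The median was 0.09, the sums were 298 to 342 CPM with dox and 310 to 324 CPM without, and Ttr was at 0 in all libraries. Of 10 endothelial genes 1 was called lower and 0 higher, while 5 had a negative and 5 a positive fold change (median −0.03). The gene called was Flt1, a VEGF receptor, at 5.42 and 3.15 CPM with dox and 15.6 and 19.8 CPM without. The list summed to 50.1 and 50.0 CPM with dox and 65.1 and 64.0 CPM without, and Flt1 makes up most of that difference. Of 14 neural progenitor genes 2 were called higher (Pax6 and Nkx2-9) and 0 lower, while 12 had a positive and 2 a negative fold change. The median was 0.54, the sums were 323 to 333 CPM with dox and 228 to 279 CPM without, and Olig2 was at 0 in a library. Of 20 naive pluripotency genes 0 were called, while 16 had a positive and 4 a negative fold change (median 0.09). At an unadjusted p under 0.05 by edgeR's test, 6 were higher and 1 lower, against 8.48% and 9.31% of all genes. The list summed to 8170 and 9317 CPM with dox and 7548 and 8091 CPM without. Of the 36 fibroblast markers 35 were higher and 0 were called at 0.01, with 28 at an unadjusted p under 0.05. The part of the cell types in the values of the guidance genes was not tested.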

How the data were processed

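The authors aligned cutadapt-trimmed reads to mm9 (TopHat2), discarded PCR duplicates and deposited raw counts of uniquely mapped reads on the exons of each gene (HOMER). The kit was directional, but use of the strand in counting and the tool versions are not given in the sources used here. The count tables of replicates 1 and 2 were joined by symbol. A total of 22899107 to 30206085 counts per library sets the precision.

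Genes with 1 or more counts in a library (20044) were tested for +dox against −dox in edgeR 4.0.16 under R 4.3.3 (TMM scaling, quasi-likelihood test), adjusted by Benjamini-Hochberg, at 0.01. DESeq2 1.42.0 was an alternative. CPM values are scaled by TMM, and the log2 fold change within a replicate adds a prior count of 2. Exon overlaps come from GENCODE on NCBIM37.

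The guidance genes, pathway lists and marker lists were chosen with earlier results of these data known. Members were named if called, among the 5 largest increases or decreases with a mean of 1 CPM or more, or highest per kilobase in their family. Of the lists, called genes and the highest member were named, except for the proteases, whose highest member is not reported here. Other genes named with values were chosen after these were seen. Alternatives were the likelihood ratio test, adjusted deviances, a replicate block, other scaling and filters, a threshold of 0.05 and leaving out each library. ChIP-seq and Hi-C samples were not used here.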

Additional observations from a re-analysis of the deposited data

How the results depend on the processing

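The median log2 fold change of the 64 guidance genes ran from −0.28 to −0.07 with a library left out. Under every alternative run it moved by less than the SD of the 2 replicate medians (0.204). That measure is wide, since those medians were −0.02 and −0.31, so it could hardly show a move. Of the 64, the number called (2) was 0 with adjusted deviances and with filterByExpr (22 and 23 at an unadjusted p under 0.05; 61 genes were left by that filter), 7 with the replicate block in edgeR (Plxnd1, Sema4c, Sema4g, Sema6a and Sema7a joined, all lower) and 3 with the replicate block in DESeq2 (Sema6a joined), 6 at a threshold of 0.05, and 0 to 13 with a library left out. Of the 101 other pathway genes, the number called (3) was 5 with DESeq2, 5 with the likelihood ratio test, 5 with the replicate block in DESeq2, 5 at a threshold of 0.05, 9 with the replicate block in edgeR, 0 with adjusted deviances and with filterByExpr (25 and 26 at an unadjusted p under 0.05), and 0 to 9 with a library left out. The cause was not tested. Same-numbered libraries deviated together with a correlation of 0.196 over 13911 genes, but with 2 pairs and no stated batch they share only a number. Over all genes, edgeR's test called 120, against 375 with DESeq2, 457 with the likelihood ratio test, 0 with adjusted deviances (3254 at an unadjusted p under 0.05), 786 and 264 with the replicate block in edgeR and DESeq2, 11 with filterByExpr, 992 and 877 without +dox replicate 1 or 2, and 0 without either −dox library (1753 and 1450 at an unadjusted p under 0.05).

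Epha2 changed sign with total counts (−0.0061). Of the 33 members compared under every setting, the sign changed with a library left out for Epha2 (−0.0227 to 0.0994), Robo1 (−0.268 to 0.0347), Slit3 (−0.48 to 0.23), Slit2 (−0.28 to 0.76), Unc5b (−1.07 to 0.0152), Plxna1 (−0.18 to 0.13), Sema3f (−0.60 to 0.38), Sema3c (−0.54 to 1.55), Sema5b (−0.0678 to 0.0211), Efna3 (−0.394 to 0.0116) and Nrp2 (−0.0874 to 0.33), none of which was called with all libraries. Epha5, Epha6 and Unc5d had 0 to 13 counts per library, and their log2 fold changes had standard errors of 0.78 to 2.08.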
